A study of Mus musculus with 6 samples.

Results

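Transcripts that mark other cells of the spleen were counted in RNA of sorted naive CD8 T cells, to describe the purity of the sort mouse by mouse. The genes were chosen by name, as 37 markers of B cells, macrophages, dendritic cells, neutrophils, platelets, erythroid cells, CD4 T cells and gamma delta T cells. All 37 were found among the 14515 genes of the count table, 33 under their current symbol and 4 under an older one (Faim3 for Fcmr, Emr1 for Adgre1, Folr4 for Izumo1r and Beta-s for Hbb-bs). Spleens came from 3 wild type mice (Lair1+/+) and 3 LAIR-1-deficient mice (Lair1-/-), with no further treatment. LAIR-1 is an inhibitory collagen receptor of leukocytes. After dispersal of the spleen and lysis of red blood cells, 100000 cells per mouse were sorted by surface CD45, CD3 and CD8, absence of CD44 and 1 further marker of naive cells. Each mouse gave 1 library. The sources used here do not give the strain, age or sex of the mice or the design of the Lair1 allele.

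A spleen suspension holds mostly B and T lymphocytes, with macrophages that clear aged red cells, dendritic cells, neutrophils, platelets and, in the mouse, erythroid precursors. Each of these cells makes some transcripts at a very high level, such as globin in erythroid cells, S100 proteins in neutrophils and immunoglobulin coreceptors in B cells. A few such cells, or RNA released from them, can therefore leave counts in a sorted sample of another type. In bulk RNA, fewer cells of a type and less RNA per cell cannot be told apart.

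Library totals over genes lay between 5519748 and 9187017 counts, and 11863 to 12554 genes had a count in a given library. Each library of the LAIR-1-deficient mice held fewer counts than any wild type library, and the part of depth in the comparisons of genotypes was not tested beyond scaling. Levels are given as CPM, counts scaled by the TMM-adjusted library total, and errors are SD over the 3 mice of a genotype. Lair1 had 58, 32 and 43 counts in wild type mice 1 to 3 and 2, 1 and 1 counts in LAIR-1-deficient mice 1 to 3, which fits the labels. Genes of the sorted cells were high in every library. Cd8a, a chain of the CD8 coreceptor, lay between 868.5 and 988 CPM, and Cd8b1, its partner chain, between 1455 and 1575 CPM. The 5 genes Cd8a, Cd8b1, Cd3d, Cd3e and Cd3g together lay between 5110 and 5637 CPM, and the highest library was 1.10 times the lowest. Single genes among them were less even, with Cd3e between 1145 and 1631 CPM, Cd3d between 347.8 and 412 CPM and Cd3g between 1170 and 1264 CPM. Ptprc, the gene of CD45, was left out of this sum and lay between 505.1 and 693.9 CPM.

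The 37 transcripts together made up between 0.0443% and 0.0640% of the scaled counts of a library. Their sum was 450.2, 640.3 and 538.3 CPM in wild type mice 1 to 3 and 442.7, 449.8 and 570.3 CPM in LAIR-1-deficient mice 1 to 3. The genotypes overlapped. Ctss, Cst3, Folr4 and Beta-s, singled out after their values were seen, held most of this sum. The other 33 transcripts summed to between 81.8 and 95.3 CPM, and the highest library was 1.17 times the lowest. A count was present in all 6 libraries for 30 of the 37 transcripts, and 7 were at 0 in at least 1 library. A count of 0 allows up to 3 counts, or 0.328 to 0.533 CPM depending on the library, for counting error only.

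**Figure D1:**
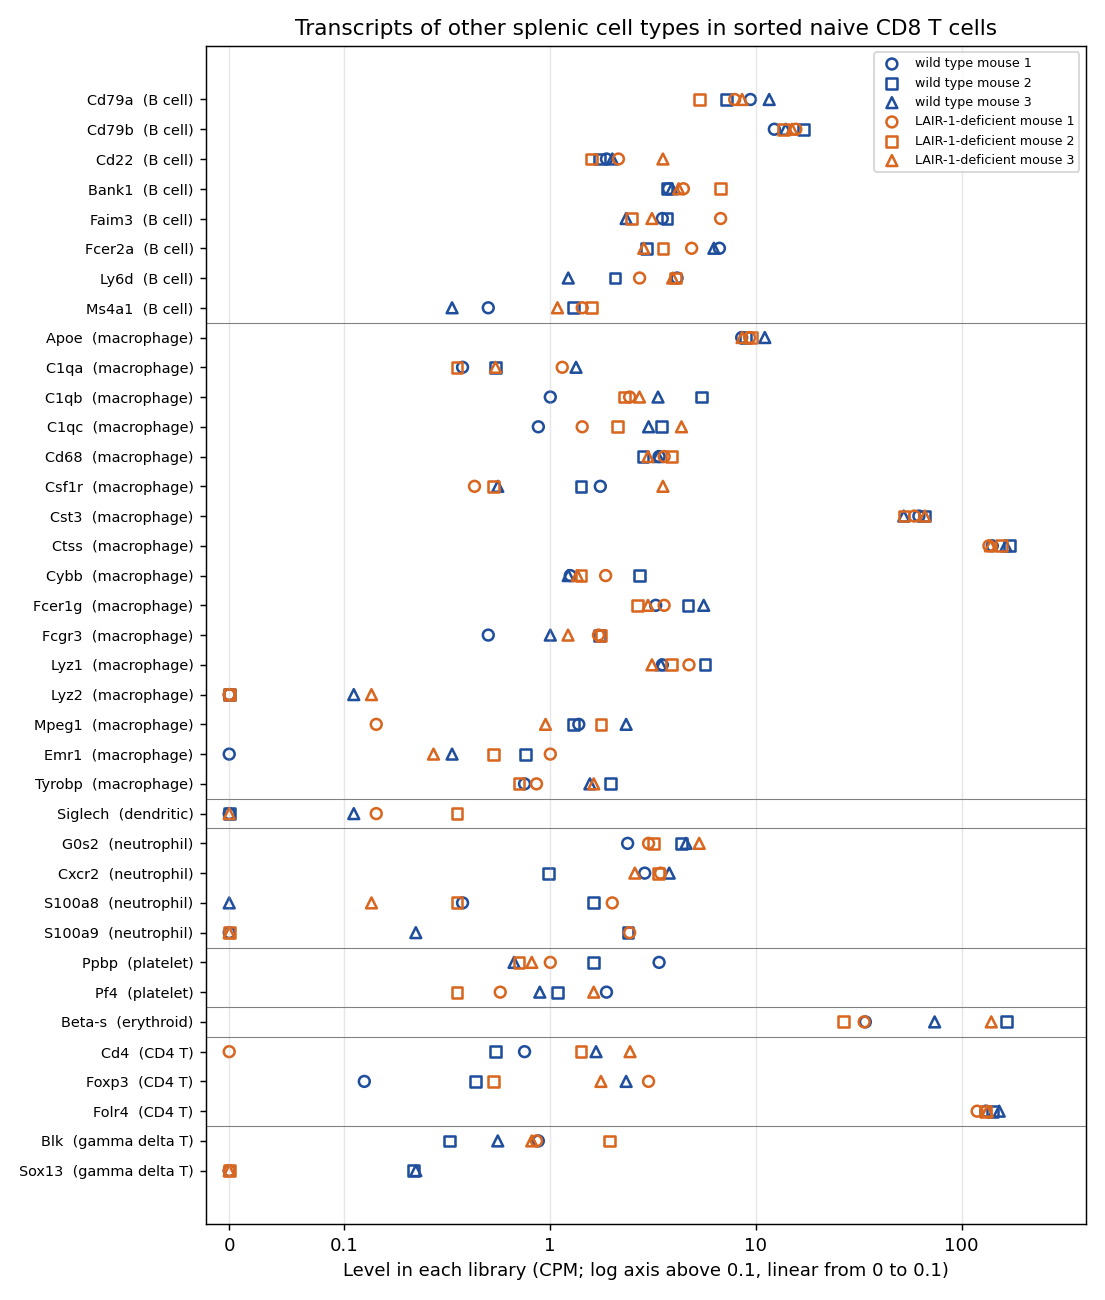
Level of each of the 37 transcripts in CPM (horizontal axis, logarithmic above 0.1 and linear between 0 and 0.1), grouped by cell type, with blue symbols for wild type and orange symbols for LAIR-1-deficient mice and 1 symbol shape per mouse number. Ctss, Cst3, Folr4 and Beta-s lie above 20 CPM in every library, while S100a8 and S100a9 split into a pair of libraries above 1 CPM and 4 libraries below it.

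B cell transcripts were low and the most even group across mice after the CD8 T cell genes themselves, judged by the ratio of the highest to the lowest sum. The 8 genes summed to 42.3, 39.9 and 41.8 CPM in wild type mice 1 to 3 and to 46.1, 39.1 and 42.5 CPM in LAIR-1-deficient mice 1 to 3. The highest library was 1.18 times the lowest, and the genotypes overlapped. Cd79a and Cd79b encode the signalling chains of the B cell receptor. Cd79b had 98, 157 and 125 counts in wild type mice and 109, 77 and 110 counts in LAIR-1-deficient mice, or 14.5 ± 2.45 against 14.8 ± 1.02 CPM (SD, n = 3 each). Cd79a had 75, 66 and 104 counts in wild type mice and 55, 30 and 63 counts in LAIR-1-deficient mice. Its level was 9.44 ± 2.22 against 7.28 ± 1.73 CPM, highest in wild type mouse 3 and lowest in LAIR-1-deficient mouse 2, with overlap between the genotypes.

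The other B cell transcripts were lower still. Fcer2a, which encodes the low-affinity IgE receptor CD23 of follicular B cells, had 53, 27 and 56 counts in wild type and 34, 20 and 21 counts in LAIR-1-deficient mice. Bank1, a scaffold protein of B cell receptor signalling, had 30, 34 and 35 counts in wild type and 31, 38 and 31 counts in LAIR-1-deficient mice. In CPM all 3 LAIR-1-deficient values of Bank1 (4.46, 6.75 and 4.23) lay above all 3 wild type values (3.78, 3.72 and 3.92). Faim3, the IgM Fc receptor gene, ranged from 2.35 to 6.77 CPM with its peak in LAIR-1-deficient mouse 1, and Ly6d, a surface protein of early and mature B cells, from 1.23 to 4.16 CPM with its peak in wild type mouse 1. Cd22, an inhibitory coreceptor, had 9 to 26 counts per library. Ms4a1, which encodes CD20, had 3 to 12 counts. Peaks of the 8 genes were spread over all 6 libraries, with 1 or 2 genes highest in each.

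How far a transcript varied between mice beyond counting noise was described by an index of dispersion. It is the squared deviation of each count from its genotype's common level, divided by the expected count, summed over the 6 libraries and divided by the 4 degrees of freedom, and is about 1 where counting error alone acts. Over the 2120 tested genes with a summed count under 300, the median index was 2.02 and the 90th percentile 5. The index grows with the number of counts, so it is best read among genes of like counts. The 30 transcripts with a summed count under 300 included some that were not tested, S100a8 and S100a9 among them. Of these 30, 7 lay above 5, namely C1qb, C1qc, Csf1r, S100a8, S100a9, Cd4 and Foxp3. None of the 6 B cell transcripts in this range did, but Faim3 (4.93), Fcer2a (4.53) and Ly6d (4.4) lay just under 5. The median index was 2.79 over the 8 B cell transcripts and 2.28 over the 16 macrophage transcripts. Among the 7 transcripts with more counts, Beta-s alone exceeded 11. This is the 90th percentile over all genes tested, not over genes of like counts.

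Macrophage transcripts were led by a pair of genes with even levels. Ctss encodes cathepsin S, a protease that processes the invariant chain of MHC class II. It lay at 141, 172 and 164 CPM in wild type and at 136, 157 and 138 CPM in LAIR-1-deficient mice. Cst3 encodes cystatin C, a secreted protease inhibitor made by many cell types. It lay at 62.1, 66.2 and 52.4 CPM in wild type and at 59.0, 52.6 and 66.4 CPM in LAIR-1-deficient mice. The highest library was 1.26 times the lowest for Ctss and 1.27 times for Cst3, close to the median of 1.26 over the 2389 tested genes at 50 CPM or more. These 2 genes held most of the group's sum of 227.3 to 279.6 CPM.

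The other 14 macrophage transcripts summed to 26.7, 41.6 and 38.4 CPM in wild type and to 32.4, 31.6 and 34.5 CPM in LAIR-1-deficient mice. The sum was lowest in wild type mouse 1 and highest in wild type mouse 2. Apoe, the lipid carrier apolipoprotein E, lay at 9.54 ± 1.36 CPM in the wild type mice against 9.18 ± 0.518 CPM in the LAIR-1-deficient mice. Cd68, a lysosomal glycoprotein, had 27, 26 and 30 counts in wild type and 25, 22 and 22 counts in LAIR-1-deficient mice, with an index of 0.336 beside 0.936 for Apoe. Both therefore varied by about as much as counting error alone gives.

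The C1q genes, which encode the 3 chains of the complement protein C1q and are made by tissue macrophages, were less even. They lie side by side on the minus strand of chromosome 4 between 136880129 and 136898803 in GRCm38. C1qb had 8, 50 and 30 counts in wild type and 17, 13 and 20 counts in LAIR-1-deficient mice. C1qc had 7, 32 and 27 counts in wild type and 10, 12 and 32 counts in LAIR-1-deficient mice. C1qa had 3, 5 and 12 counts in wild type and 8, 2 and 4 counts in LAIR-1-deficient mice. Summed over the 3 genes the level was 2.27, 9.51 and 7.73 CPM in wild type and 5.04, 4.80 and 7.65 CPM in LAIR-1-deficient mice. Wild type mouse 1 was the lowest and wild type mouse 2 the highest, so the whole range of the C1q sum lay within the wild type mice. This sum, and those without Ctss and Cst3 or without Folr4, were formed after the values were seen.

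Surface receptors and adaptors of myeloid cells were low. Csf1r, the receptor of the macrophage growth factor CSF-1, had 14, 13 and 5 counts in wild type and 3, 3 and 26 counts in LAIR-1-deficient mice. LAIR-1-deficient mouse 3 stood above the rest, and the index of 8.14 was exceeded by 1.57% of the 1655 genes with a summed count of 20 to 99. Csf1r overlaps Hmgxb3 in the annotation, and without strand information reads of the overlap cannot be assigned. Emr1, which encodes the macrophage antigen F4/80, had 0 to 7 counts. Fcer1g, the common Fc receptor gamma chain, had 15 to 50 counts, Fcgr3, the Fc receptor CD16, 4 to 16, and Tyrobp, the adaptor DAP12, 4 to 18. Cybb, the catalytic subunit of the phagocyte NADPH oxidase, had 8 to 25 counts and Mpeg1, a pore-forming protein of macrophages, 1 to 21.

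The lysozyme genes Lyz1 and Lyz2 were counted very unequally. Lyz2 is known as the lysozyme of macrophages and neutrophils, and Lyz1 as that of intestinal Paneth cells. Lyz1 had 28, 52 and 31 counts in wild type and 33, 22 and 23 counts in LAIR-1-deficient mice. Lyz2 had 0, 0 and 1 counts in either genotype. The genes are neighbours on the minus strand of chromosome 10 (Lyz1 from 117287797 to 117292868, Lyz2 from 117277331 to 117282321, GRCm38). Their coding sequences of 444 bases differ at 22 bases, and the longest identical run is 118 bases. The stretch of 120 bases that holds the most differences is bases 37 to 156 of the coding sequence in GENCODE vM21. It is shown with its 14 differing bases in capitals, since a read lying within it could be assigned only by these letters.
Lyz1: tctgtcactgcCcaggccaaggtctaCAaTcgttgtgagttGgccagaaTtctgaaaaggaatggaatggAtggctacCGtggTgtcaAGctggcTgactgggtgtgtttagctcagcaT
Lyz2: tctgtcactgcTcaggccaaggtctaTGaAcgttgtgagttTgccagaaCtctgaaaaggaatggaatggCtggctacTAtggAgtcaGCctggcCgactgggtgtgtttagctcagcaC
Of all 50-base windows of the transcripts, 16.1% of those of Lyz1 and 15.4% of those of Lyz2 occur in the other gene. The sources used here do not say how reads that match both genes were counted, so the split between them is uncertain and the counts under Lyz1 may hold reads of either gene. Of the 37 transcripts, 26 share no 50-base window with another annotated gene, and 4 share more than 10%: Lyz1, Lyz2, Beta-s and Foxp3.

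The dendritic cell marker Siglech, a lectin of plasmacytoid dendritic cells, had 0, 0 and 1 counts in wild type and 1, 2 and 0 counts in LAIR-1-deficient mice. It did not exceed 3 counts in any library, so no level or difference was detectable at this depth.

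Among neutrophil transcripts, S100a8 and S100a9 were concentrated in a pair of libraries, 1 of each genotype. They encode the subunits of calprotectin, an abundant cytosolic protein complex of neutrophils. S100a9 had 0, 22 and 2 counts in wild type and 17, 0 and 0 counts in LAIR-1-deficient mice. S100a8 had 3, 15 and 0 counts in wild type and 14, 2 and 1 counts in LAIR-1-deficient mice. Wild type mouse 2 and LAIR-1-deficient mouse 1 together held 29 of 35 counts of S100a8 and 39 of 41 counts of S100a9. Of the 1655 genes with a summed count of 20 to 99, 1 had a higher index than S100a9 (16.4) and 19 a higher index than S100a8 (9.05). Ngp, which encodes a granule protein of neutrophils and was in the list of further neutrophil markers, had 0, 28 and 3 counts in wild type and 15, 0 and 0 counts in LAIR-1-deficient mice. Its counts were thus high in the same pair of libraries. Mxd1, the only tested gene of that list, did not follow. It lay at 20.5, 15.8 and 17.1 CPM in wild type and at 18.4, 14.6 and 14.3 CPM in LAIR-1-deficient mice. Of the others, picked after viewing, Lcn2 had 0, 9 and 1 counts in wild type and 2, 1 and 1 counts in LAIR-1-deficient mice. Mmp9 had 0, 2 and 0 counts in wild type and 0, 3 and 2 counts in LAIR-1-deficient mice. Camp had 3 counts, Csf3r 2, Ltf 1 and Mmp8 1, all in wild type mouse 2 and none in LAIR-1-deficient mouse 1.

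The other neutrophil genes among the 37 did not follow S100a8 and S100a9. Cxcr2, the receptor of neutrophil-attracting chemokines, had 23, 9 and 34 counts in wild type and 24, 19 and 19 counts in LAIR-1-deficient mice, and wild type mouse 2 was its lowest library at 0.984 CPM. G0s2, an inhibitor of triglyceride lipase that is also high in neutrophils, had 19, 40 and 41 counts in wild type and 21, 18 and 39 counts in LAIR-1-deficient mice. G0s2 overlaps Lamb3 in the annotation. The group sum of 5.67 to 10.9 CPM therefore mixes unlike patterns.

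S100a8 and S100a9 are separated by 22596 bases on chromosome 3 (90668978 to 90670035, plus strand, and 90692632 to 90695721, minus strand, GRCm38). Bases upstream of each gene, from RefSeq (GRCm38.p6), are shown because the pair was high in the same libraries. They are the 250 bases before the RefSeq start for S100a9, and the 157 of those 250 bases that precede the first base annotated in GENCODE for S100a8. Both strands were searched, and capitals mark matches to 5 motifs searched. These were TATAAA for the TATA box, TTGCNNAA for C/EBP factors, GAGGAA for the core bound by PU.1, AGATAA for GATA factors and CACACCC for the CACCC box.
S100a8, chr3:90668821-90668977, plus strand: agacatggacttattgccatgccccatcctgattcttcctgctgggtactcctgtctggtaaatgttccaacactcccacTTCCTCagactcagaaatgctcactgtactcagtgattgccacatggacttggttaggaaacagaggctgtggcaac
S100a9, chr3:90695722-90695971, minus strand: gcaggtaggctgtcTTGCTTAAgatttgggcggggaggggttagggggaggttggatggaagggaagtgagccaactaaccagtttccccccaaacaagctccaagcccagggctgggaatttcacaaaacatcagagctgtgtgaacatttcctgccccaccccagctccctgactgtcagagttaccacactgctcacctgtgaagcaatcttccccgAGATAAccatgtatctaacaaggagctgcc
The S100a8 stretch holds 1 PU.1 core, as do 15.3% of all RefSeq promoters over the same 157 bases, and the S100a9 stretch holds 1 C/EBP and 1 GATA motif. Of the 32851 RefSeq promoters, taken over 250 bases, 12.4% hold the TATA box, 9.56% the C/EBP motif, 23.3% the PU.1 core, 9.99% the GATA motif and 6.93% the CACCC box. A match is a description of the letters only.

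Platelet transcripts were few. Ppbp and Pf4 encode chemokines of platelet granules and lie close together on chromosome 5. Ppbp had 27, 15 and 6 counts in wild type and 7, 4 and 6 counts in LAIR-1-deficient mice, and Pf4 had 15, 10 and 8 counts in wild type and 4, 2 and 12 counts in LAIR-1-deficient mice. Both were highest in wild type mouse 1, and their sum was 5.29 CPM there against 1.07 to 2.73 CPM in the other libraries. Neither passed the filter on low counts, so neither was tested.

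The erythroid transcript Beta-s, an adult beta globin, had an index of 405. Of the 9565 genes tested, 41 exceeded it, a rank over genes of all counts that mixes depth with variation. Beta-s had 271, 1518 and 661 counts in wild type and 234, 151 and 1022 counts in LAIR-1-deficient mice. Its level was 34.1, 166 and 74.1 CPM in the wild type mice, beside 33.7, 26.8 and 139 CPM in the LAIR-1-deficient mice. Wild type mouse 2 and LAIR-1-deficient mouse 3 were high, wild type mouse 3 was in between and the other 3 libraries were low, so each genotype held both high and low mice. The highest library was 6.18 times the lowest, a ratio exceeded by 122 of the 9565 genes tested (1.28%). Red blood cells were lysed and washed away before the sort, per the labels' protocols. Alas2, the erythroid enzyme of haem synthesis, was chosen after its values were seen. It had 1, 19 and 2 counts in wild type and 4, 0 and 8 counts in LAIR-1-deficient mice, so its 2 highest libraries in CPM were those of Beta-s. Other genes of the erythroid list, also picked after viewing, did not follow. Ermap had 7, 3 and 6 counts in wild type and 2, 4 and 7 counts in LAIR-1-deficient mice, Epb4.2 had 5 of its 6 counts in LAIR-1-deficient mouse 2, and Tfrc was lowest in wild type mouse 2.

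Beta-s is annotated as Hbb-bs on the minus strand of chromosome 7 (103826534 to 103828096, GRCm38). Of its 50-base windows, 53.2% also occur in its neighbour Hbb-bt, so the counts of Beta-s may hold reads of either gene. Hbb-bt (or Beta-t), Hba-a1, Hba-a2, Hbb-b1 and Hbb-b2 were in the further erythroid list. None was found in the count table under these symbols.

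**Figure D2:**
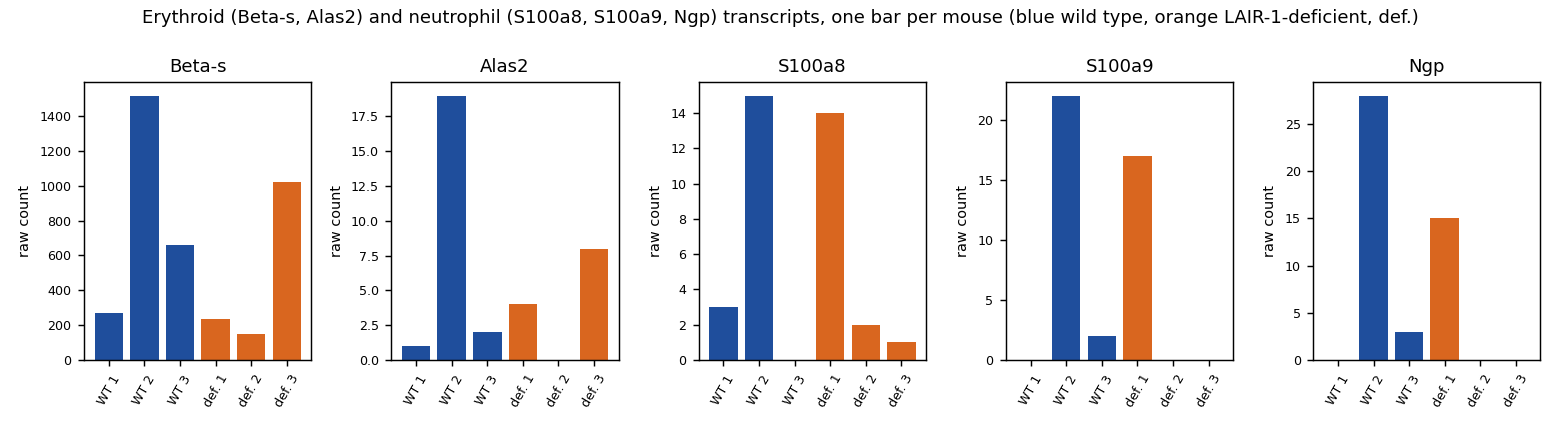
Raw counts (vertical axes, each from 0) of the erythroid transcripts Beta-s and Alas2 and the neutrophil transcripts S100a8, S100a9 and Ngp in each of the 6 libraries, with blue bars for wild type and orange bars for LAIR-1-deficient mice. Beta-s and Alas2 are highest in wild type mouse 2 and LAIR-1-deficient mouse 3, and S100a8, S100a9 and Ngp in wild type mouse 2 and LAIR-1-deficient mouse 1.

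Of the T cell transcripts, Cd4 was close to absent and Folr4 was not. Cd4 encodes the coreceptor of helper and regulatory T cells. It had 6, 5 and 15 counts in wild type and 0, 8 and 18 counts in LAIR-1-deficient mice, beside 5464 to 9040 counts of Cd8a. Per kilobase of annotated exon, the mean level over the 6 libraries was 0.284 CPM for Cd4 and 256 CPM for Cd8a. The sources used here do not say whether reads cover whole transcripts, so this scale is approximate. Foxp3, the transcription factor of regulatory T cells, had 1, 4 and 21 counts in wild type and 21, 3 and 13 counts in LAIR-1-deficient mice. It was high in wild type mouse 3 and LAIR-1-deficient mice 1 and 3. Foxp3 overlaps Ppp1r3f and Ccdc22 and shares 14.7% of its windows with the annotated gene Flicr, so its counts are uncertain in origin.

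Folr4 encodes folate receptor 4, a surface protein known for its high level on regulatory T cells. It lay at 131, 141 and 152 CPM in wild type and at 119, 130 and 134 CPM in LAIR-1-deficient mice, or 58.0 CPM per kilobase of exon. The highest library was 1.28 times the lowest, close to the median of 1.26 over tested genes at 50 CPM or more. The order of its libraries was not that of Cd4 or Foxp3: LAIR-1-deficient mouse 1, with 0 counts of Cd4 and the highest level of Foxp3, was the lowest for Folr4. Without Folr4 the CD4 T group summed to 0.882, 0.984 and 4.03 CPM in wild type and to 3.02, 1.95 and 4.23 CPM in LAIR-1-deficient mice.

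The gamma delta T cell markers had few counts. Blk, a Src family kinase of B cells and of gamma delta T cells, had 7, 3 and 5 counts in wild type and 6, 11 and 6 counts in LAIR-1-deficient mice. Sox13, a transcription factor of gamma delta T cell development, had 0, 2 and 2 counts in wild type and 0 in all 3 LAIR-1-deficient mice. Both genotypes were at or under 3 counts per library for Sox13, so no difference was detectable.

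**Figure D3:**
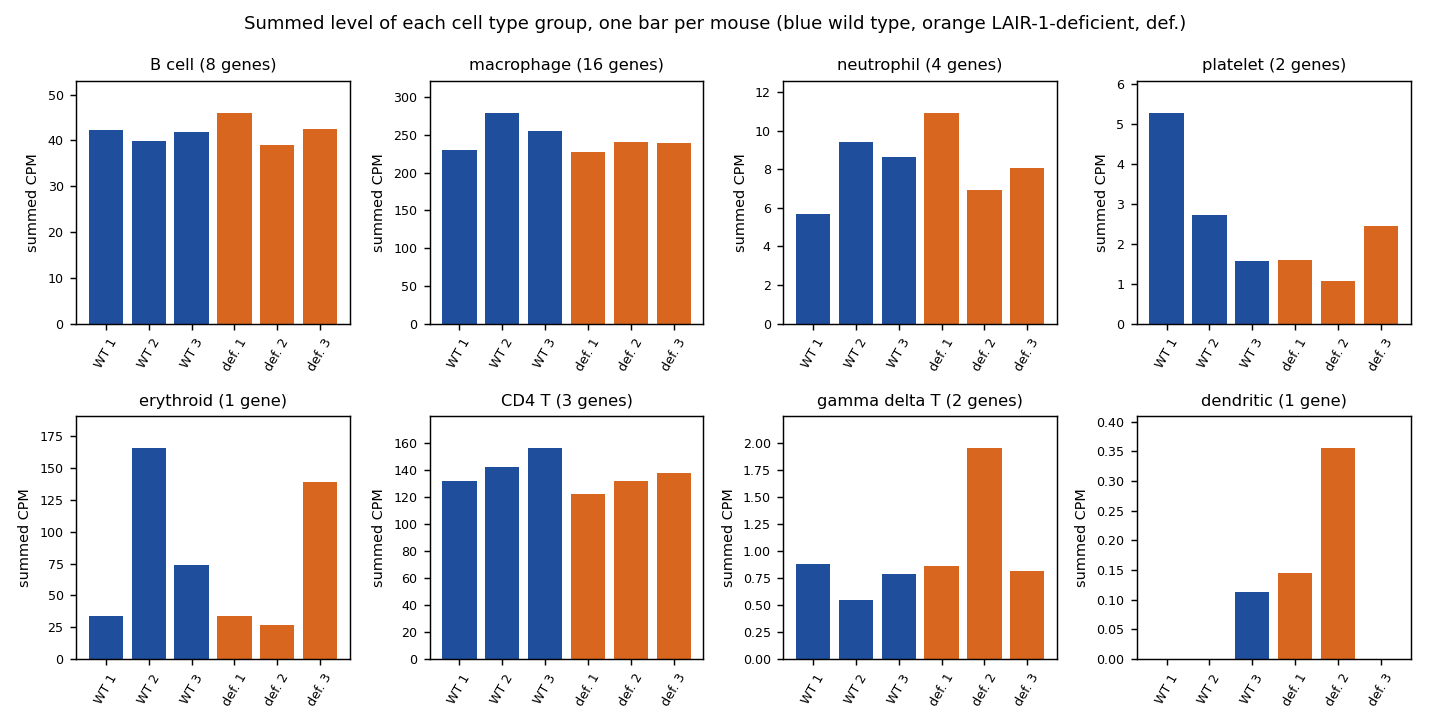
Summed level in CPM (vertical axes, each from 0) of the transcripts of each cell type group, 1 bar per mouse, with blue bars for wild type and orange bars for LAIR-1-deficient mice (def.). B cell sums lie between 39.1 and 46.1 CPM in all 6 libraries, whereas the erythroid bar ranges from 26.8 to 166 CPM and the platelet bars from 1.07 to 5.29 CPM.

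Across cell types, no library was the highest throughout. Of the 34 transcripts with a summed count of at least 10, 7 were highest in wild type mouse 2 and 7 in wild type mouse 3. Another 6 were highest in LAIR-1-deficient mouse 3, 5 each in LAIR-1-deficient mice 1 and 2 and 4 in wild type mouse 1. Over all 11385 genes with such counts, the shares were 13.9% for wild type mouse 2 and 16% for wild type mouse 3, and between 17% and 18.5% for the other libraries. Wild type mouse 2 was the highest library for 5 macrophage transcripts (C1qb, Ctss, Cybb, Lyz1 and Tyrobp), 1 B cell transcript and Beta-s. It was also high for S100a8 and S100a9 and the lowest library for Cxcr2.

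The comparison between genotypes asks whether loss of LAIR-1 went with a different content of other cell types in the sorted sample. No transcript of the 37 was called different. Of the 37, 26 passed the filter on low counts and were tested in edgeR's quasi-likelihood test, fitted over all 9565 genes. At an adjusted p under 0.05, 0 of the 26 were called, where 0.0105% of all genes tested were, namely Lair1. An unadjusted p under 0.05 was reached by 0 of the 26 in edgeR, in DESeq2 and in limma-voom, against 3.25% of all genes tested in edgeR. The smallest unadjusted p in edgeR was 0.115, for Fcer1g, with 4.52 ± 1.17 CPM in the wild type mice against 3.09 ± 0.473 CPM in the others and an adjusted p of 1.0. Of the 26, 13 had a positive and 13 a negative log2 fold change, with a median of 0.003, beside 49.8% negative and a median of 0.0006 over all genes tested. Bank1 was the 1 transcript of the 26 whose genotypes did not overlap, where 8.38% of all genes tested did not overlap and 4.3% did so with the LAIR-1-deficient mice higher.

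By cell type, fold changes of tested transcripts went both ways. The 7 tested B cell transcripts had 5 positive and 2 negative values, between -0.48 (Fcer2a) and 0.54 (Ly6d), none past the test. The 13 tested macrophage transcripts had 4 positive and 9 negative values, between -0.86 (Mpeg1) and 0.50 (Fcgr3), none past the test. Mpeg1 stood at -1.57 without LAIR-1-deficient mouse 2. G0s2 and Cxcr2 stood at 0.03 and 0.29. Cd4 and Foxp3 stood at 0.38 and 0.87, and Folr4 at -0.15. With 1 library left out Foxp3 ranged from 0.28 (without LAIR-1-deficient mouse 1) to 2.58 (without wild type mouse 3). Cd4 ranged from -0.59 (without LAIR-1-deficient mouse 3) to 0.99 (without wild type mouse 3), and Csf1r stood at -1.34 and C1qc at -0.50 without LAIR-1-deficient mouse 3. For Beta-s the log2 fold change was -0.45, and its 95% interval from -3.07 to 2.18 was the widest of the 26. Leaving out wild type mouse 2 gave 0.31, and leaving out LAIR-1-deficient mouse 3 gave -1.59, so a single mouse turned its sign.

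The intervals show how large a difference these data could have held. For the most counted transcripts they were narrow: -0.37 to 0.07 for Ctss, -0.28 to 0.24 for Cst3, -0.36 to 0.06 for Folr4 and -0.34 to 0.40 for Cd79b. For 9 of the 26 the interval lay within 2-fold in both directions, and for 17 it did not, beside 85.9% within 2-fold over all genes tested. The intervals of Csf1r, Cd4 and Beta-s reach past 2-fold in both directions and that of Foxp3 past 2-fold upward. The summed level in LAIR-1-deficient over wild type mice was 1.03 for B cell, 0.926 for macrophage, 1.09 for neutrophil, 0.532 for platelet, 0.730 for erythroid, 0.911 for CD4 T and 1.64 for gamma delta T transcripts. In each of these 7 groups the ranges of the genotypes overlapped. With 1 library left out, the ratio ranged from 0.414 to 0.792 for platelet and from 0.331 to 1.23 for erythroid transcripts. For gamma delta T transcripts, with 42 counts over all libraries, it ranged from 1.14 to 1.91.

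**Figure D4:**
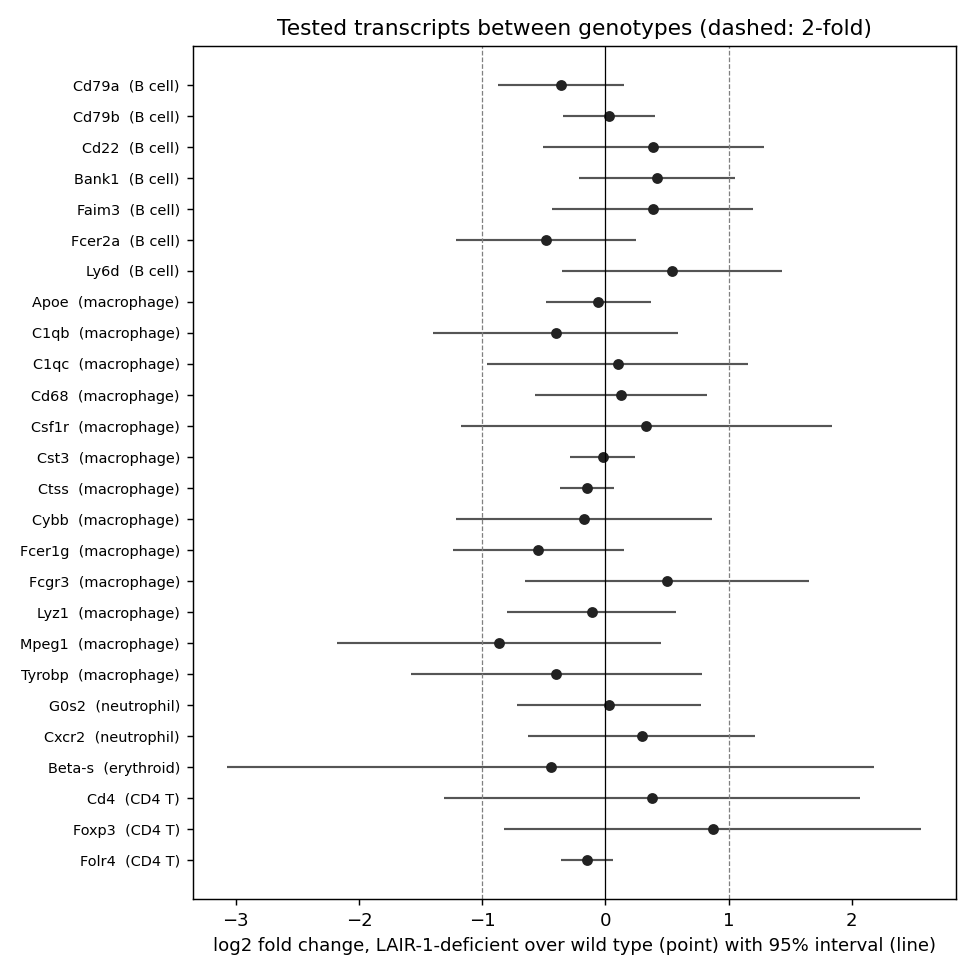
Log2 fold change of the 26 tested transcripts, LAIR-1-deficient over wild type (horizontal axis), with points for estimates and lines for 95% intervals from edgeR, and dashed lines at 2-fold. Every interval includes 0, and the intervals of Beta-s, Foxp3 and Cd4 are the widest.

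Further markers of the same cell types gave no call either. Of 147 further genes listed for these types and for natural killer cells, 112 were found in the table, 34 were tested and 0 were called, with 14 positive and 20 negative fold changes. Of these 34, 2 did not overlap between genotypes, Hmox1 and Car2, both lower in LAIR-1-deficient mice, where 8.38% of all genes tested did not overlap and 4.09% did so in this direction.

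The macrophage list was led by Ly6c2, at 7.16 ± 1.48 CPM in the wild type mice against 6.69 ± 0.591 CPM in the others, and Axl at 5.77 ± 2.29 and 3.92 ± 1.75 CPM. Of its 5 tested genes, 4 were nominally lower in LAIR-1-deficient mice (median log2 fold change -0.59), and none passed the test. The remaining tested gene, Csf2ra, stood at 0.11. Hmox1, Car2, Sirpa, Csf2ra and the sums that follow were chosen after their values were seen. Hmox1 encodes haem oxygenase 1, which degrades haem and is high in the red pulp macrophages of the spleen. It had 40, 57 and 44 counts in wild type and 11, 15 and 12 counts in LAIR-1-deficient mice, with no overlap. Its log2 fold change was -1.48 with an interval of -2.21 to -0.75, and edgeR's p was 0.0005 unadjusted and 0.9999 adjusted over all genes. Sirpa, an inhibitory receptor of macrophages, had 9, 11 and 8 counts in wild type and 0, 1 and 0 counts in LAIR-1-deficient mice, and did not pass the count filter. Other genes of the macrophage list, also picked after viewing, overlapped between genotypes. Slc40a1 had 9, 36 and 21 counts in wild type and 10, 0 and 14 counts in LAIR-1-deficient mice. Vcam1 had 4, 9 and 3 against 6, 3 and 5 counts, Spic 2, 0 and 6 against 0, 2 and 3, and Lgals3 0, 11 and 5 against 5, 5 and 6. The 19 genes found of this list summed to 20.4, 34.8 and 30.3 CPM in wild type and 19.6, 20.1 and 19.9 CPM in LAIR-1-deficient mice, which did not overlap. Without Hmox1 the genotypes overlapped, at 15.4, 28.5 and 25.3 CPM against 18.0, 17.4 and 18.3 CPM.

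The most abundant further B cell genes were Cd37, a tetraspanin of lymphocytes, at 319 ± 32.1 CPM in the wild type mice against 306 ± 39.1 CPM in the others, and Ralgps2 at 16.1 ± 2.23 and 15.3 ± 2.30 CPM. Among natural killer genes these were Nkg7, a granule protein of cytotoxic lymphocytes, at 363 ± 4.09 and 372 ± 32.9 CPM, and Eomes, a transcription factor of cytotoxic lymphocytes, at 47.1 ± 7.91 and 49.5 ± 9.23 CPM. CD8 T cells are known to express both. Ncr1, the receptor that defines natural killer cells, had 1 count in all 6 libraries together.

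The 2 leading genes of each other list overlapped between genotypes. Which cells of the sorted sample a transcript of any list came from was not tested. Ccr9, a chemokine receptor listed for plasmacytoid dendritic cells and known on naive CD8 T cells, lay at 300.0 ± 42.5 CPM in the wild type mice against 296 ± 60.2 CPM in the others, while Irf8, a transcription factor of dendritic and B cells, lay at 8.09 ± 1.30 and 10.4 ± 6.25 CPM. The leading erythroid list genes were Tfrc, the transferrin receptor, at 38.4 ± 6.14 and 38.4 ± 2.27 CPM, and Bpgm at 11.9 ± 0.645 and 12.2 ± 1.83 CPM. The CD4 T list was led by Itgae, at 69.7 ± 7.76 and 73.0 ± 13.1 CPM, and Icos, at 39.6 ± 1.53 and 40.5 ± 5.77 CPM. Zbtb7b, the transcription factor that sets the CD4 lineage, had 0 to 3 counts per library. The platelet list was led by Itgb3 at 9.69 ± 1.55 and 10.9 ± 0.585 CPM and Itga2b at 0.835 ± 0.448 and 0.237 ± 0.301 CPM. Mxd1 led the neutrophil list at 17.8 ± 2.42 and 15.8 ± 2.30 CPM. The gamma delta list was led by Tmem176b, at 4.85 ± 2.38 and 3.96 ± 1.41 CPM, and Tmem176a, at 2.56 ± 1.14 and 1.79 ± 0.231 CPM. Ncr1 and Zbtb7b were chosen after their values were seen.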

How the data were processed

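RNA of naive CD8 T cells sorted from 6 mice was measured in 1 library per mouse. The authors deposited whole-number, unnormalized counts of each gene, with a column for each library. BWA (version not stated) and the build mm10 are named in the submitters' processing notes. For annotation, counting tool, strand setting and molecular identifiers, the sources used here give nothing. Libraries were made with small RNA primers, per the labels' protocols. Columns were matched by sample description, and 4 spike-in rows (0 to 4 counts per library) were left out.

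The test was run in R 4.3.3 with edgeR 4.0.16 (filterByExpr with a smallest count of 10, TMM scaling, robust quasi-likelihood F test, two-sided, no covariate) with Benjamini-Hochberg adjustment over 9565 genes and a threshold of 0.05. CPM are counts scaled by the TMM-adjusted library total. The SE and 95% interval of a fold change come from the F statistic. Alternatives were RLE or total scaling, other filters, DESeq2 1.42.0, limma-voom (limma 3.58.1), a mouse-number block and leaving out libraries. Shared windows of 50 bases were counted over GENCODE vM21 transcripts (GRCm38, the build mm10 denotes). The fit was tested on simulated data. Members and lists were chosen with earlier results of these data known. Named genes are all members, the CD8 T reference genes, Lair1 and the 2 most abundant genes of each further list. Any other named gene is marked as such in the text. P-values set the difference between genotypes against the spread between mice, estimated with information shared across genes. The limits given for counts of 0 reflect counting error alone.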

Additional observations from a re-analysis of the deposited data

Results flagged for a closer look

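The 4 rows of spike-in RNA, which enter no comparison, summed to 4 counts in wild type mouse 2, above the 3 counts that a count of 0 allows, and to 0 to 2 counts in the other libraries.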

How the results depend on the processing

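The count of called members was 0 under every alternative that was run. The count of called genes among all tested, 1 with all libraries, was 3 with no low-count filter and 0 with a smallest count of 30, where Lair1 was not tested. It lay between 0 and 2 when a library was left out (0 without wild type mouse 1, 2 without LAIR-1-deficient mouse 2 or 3) and was 0 without mouse 1 of both genotypes. Lair1 had a log2 fold change between -4.93 and -4.26 when a library was left out. It did not pass without wild type mouse 1 (edgeR adjusted p = 0.0592) or without mouse 1 of both genotypes (-4.61, edgeR adjusted p = 0.0712). The count of members that did not overlap, 1 with all libraries, was between 2 and 6 with a library left out and 6 without mouse 1 of both genotypes. Fewer values then have to be separated, and the share over all genes tested was between 15.1% and 20.7% and 32.8%. The neutrophil sum ratio, 1.09 with all libraries, was between 0.946 and 1.21 with a library left out and 0.829 without mouse 1 of both genotypes. The CD4 T sum ratio was 1.56 without Folr4, an alternative chosen after seeing the data. Under limma-voom the sign turned for Csf1r (-0.10) and Cd4 (-0.58), and the cause was not tested. With a library left out, the sign of the log2 fold change turned for 13 members that passed in no fit. Their ranges were -0.113 to 0.0575 for Cst3, -0.129 to 0.0627 for Apoe, -1.59 to 0.31 for Beta-s, -0.29 to 0.18 for G0s2, -0.0723 to 0.168 for Cd79b, -0.18 to 0.63 for Faim3, -0.28 to 0.17 for Lyz1, -0.50 to 0.43 for C1qc, -0.81 to 0.18 for C1qb, -1.34 to 0.78 for Csf1r, -0.37 to 0.32 for Cybb, -0.10 to 0.71 for Cxcr2 and -0.59 to 0.99 for Cd4. Without mouse 1 of both genotypes the sign turned for Cst3 (0.0042), G0s2 (-0.0537), Cd79b (-0.12), Faim3 (-0.10) and Foxp3 (-0.20). The labels number the mice 1 to 3 in each genotype and do not say that a number pairs mice. Deviations of same-numbered mice correlated at 0.29, 0.00938 and 0.065 across genes, beside -0.222 to 0.184 for differently numbered mice. Deviations were taken from the mean of 3 mice, so these values do not decide whether mice were paired. The main fit did not take the numbers as pairs. With mouse number as a replicate block, 0 members and 1 gene of all tested were called, and Lair1 had a log2 fold change of -4.61. The 11 members under the count filter had too few counts for a test.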
